A study of Cricetulus griseus with 24 samples.

Results

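The 9 genes described here belong to the interferon response of Chinese hamster ovary (CHO) cells. They are the transcription factors Stat2, Irf1, Irf3, Irf7 and Irf9, the double-stranded RNA sensor Ifih1, and the interferon-stimulated targets Isg15, Usp18 and Rsad2. They were chosen by symbol, with earlier results of these data known, and all 9 were found once among the 28037 genes of the deposited count table. RNA-seq had been performed on 24 libraries of 3 CHO lines, each harvested in the exponential and in the stationary phase of growth. A culture here means a line, number and phase as given in the labels, which makes 20. The labels do not say whether equal numbers at both phases come from the same flask.

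A0 is an antibody-producing CHO DG44 line, derived by co-transfection of a plasmid carrying the IgG heavy chain and a plasmid carrying the light chain with a neomycin resistance gene, followed by selection with G418. A1 is the progeny of A0 after stepwise amplification with methotrexate and therefore carries the same transgenes. CHO-S, titled NDST in the labels without an explanation of that name, served as the other line. The study describes A0 as a low producer and A1 as a high producer, and each stands for 1 cell line rather than for several independently derived ones. CHO-S and DG44 are separate CHO host lineages, so in the comparisons with CHO-S the host and the transgenes cannot be told apart. A0 was represented by 4 cultures per phase, and A1 and CHO-S by 3 each. In the exponential phase every A0 culture had been sequenced in 2 libraries, which were summed per culture. The second library was marked RLT for cultures 1 and 2 and Duplicate for cultures 3 and 4. Levels are given as CPM, counts per 1000000 counts on genes, after scaling of library sizes over the 20 cultures. A lower CPM cannot tell fewer expressing cells from less mRNA per cell.

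The libraries held between 1038026 and 14652646 counts on genes. The lowest total belonged to stationary CHO-S culture 1, and every other library held at least 6532373. The mesenchymal marker Vim was abundant in all groups, with group means between 799 and 1412 CPM. Of 8 leukocyte markers, Ptprc, Cd3e, Ms4a1 and Adgre1 had at most 2 counts in any culture and Itgam at most 5, and the summed level of the list came mostly from the lysosomal Cd68.

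In the interferon pathway, cytosolic sensors such as the helicase encoded by Ifih1 (MDA5) recognise viral RNA and signal to IRF3 and IRF7, the factors that switch on type I interferon genes. Secreted interferon binds its receptor, whose kinases activate STAT proteins, among them STAT2. These join IRF9 in the complex ISGF3, which binds the promoters of interferon-stimulated genes. Among those targets are Isg15, a ubiquitin-like modifier, Usp18, the protease that removes it from proteins and also restrains the receptor, Rsad2, the antiviral enzyme viperin, and Irf7, Irf9 and Stat2 themselves. IRF1 activates an overlapping set of targets. In CHO cells the pathway is known mainly from work on their response to viruses.

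Isg15 and Usp18 and, by group means in exponential phase, the factors Stat2, Irf1, Irf7 and Irf9 were highest in CHO-S, intermediate in A1 and lowest in A0, while the sensor Ifih1 was present in A0 and A1 and almost without counts in CHO-S. Irf3 overlapped between all neighbouring groups in its order of levels. Isg15 spanned the widest range, from a mean of 0.727 CPM in exponential A0 to 203 CPM in stationary CHO-S. All of these levels are shown culture by culture in the plot of the 9 members.

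**Figure D1:**
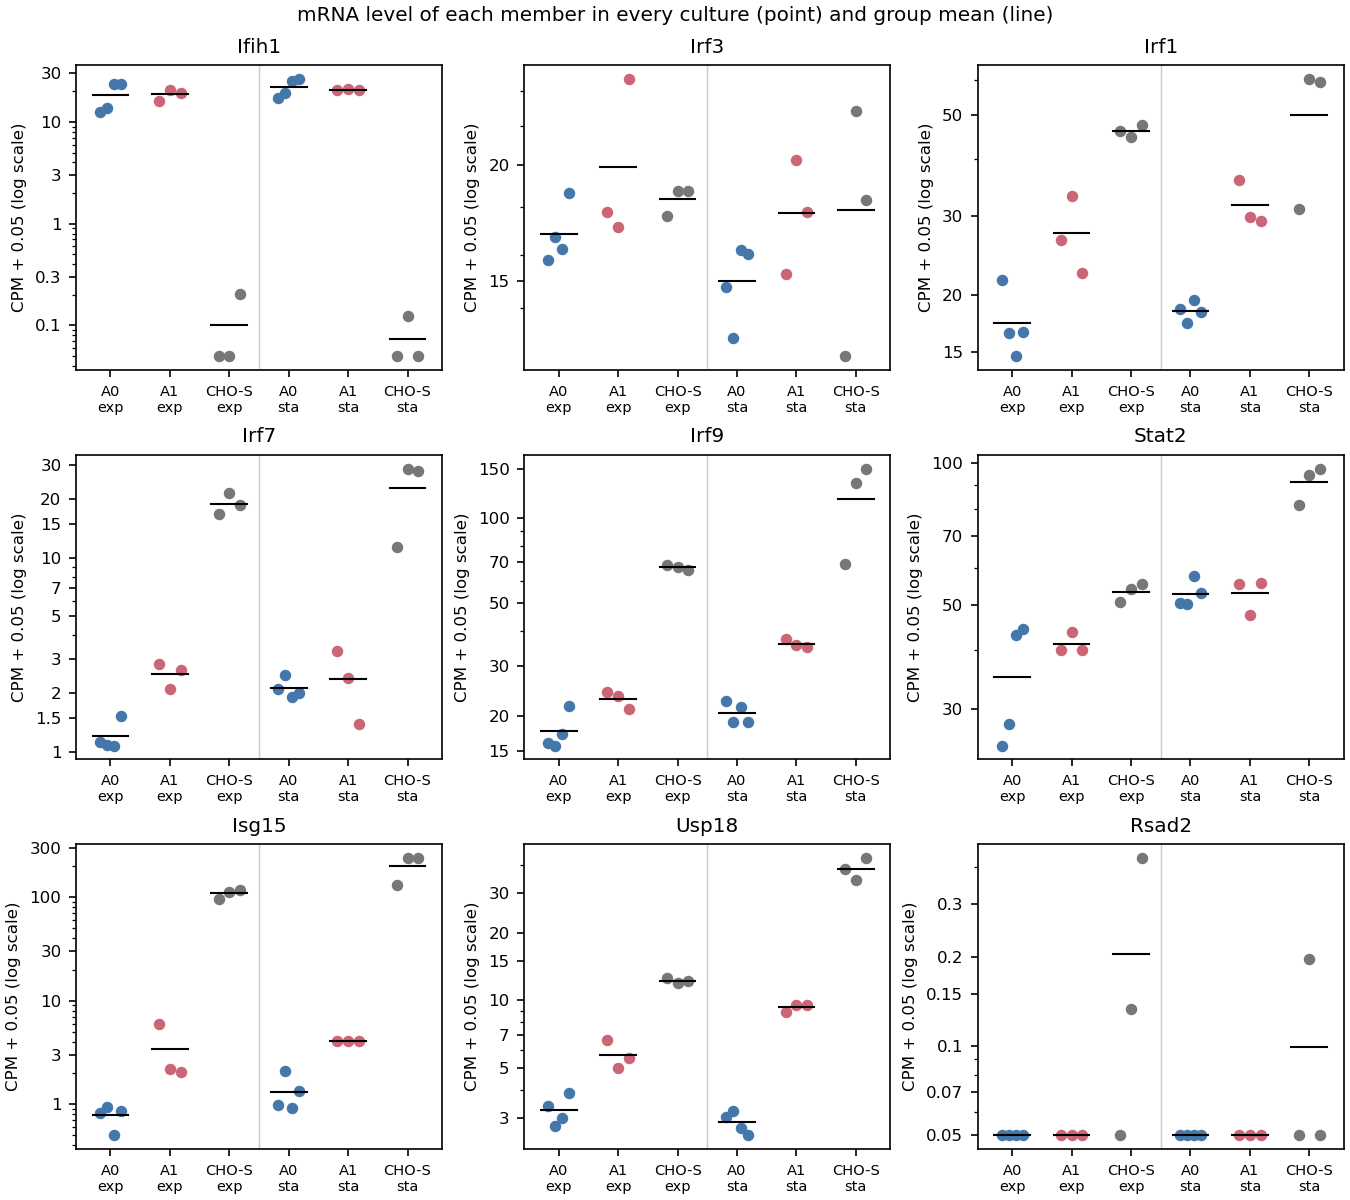
Level of each of the 9 genes in every culture (points, coloured by line) with the group mean (black line). The vertical axis is CPM plus 0.05 on a log scale, and exp and sta stand for the exponential and the stationary phase. The CHO-S points lie above all A0 and A1 points for Isg15, Usp18, Irf7 and Irf9, and near 0 for Ifih1.

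The comparison of A1 with A0 asks which transcripts differ between the amplified line and its parent. In exponential phase 5 of the 8 members tested passed the threshold, an adjusted p-value under 0.05 in the quasi-likelihood test of edgeR after Benjamini-Hochberg adjustment over all genes tested, and all 5 were higher in A1. Of all 19946 genes tested, 25.9% passed in either direction, 12% as higher and 13.8% as lower in A1. In stationary phase 4 of 8 members passed, again all higher in A1, against 33.7% of 19293 genes in either direction, 16% higher and 17.7% lower. The median log2 fold change of the members was 0.52 in exponential and 0.50 in stationary phase, and that of all genes -0.039 and -0.0021. The member groups did not overlap in 4 genes at each phase, where 34.4% and 39.9% of all genes had groups that did not overlap. Rsad2 was not tested between A1 and A0, because it had no count in any of their 14 cultures.

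Isg15 (RefSeq gene 100772582) showed the widest difference of the members between A1 and A0 in exponential phase. Its levels were 0.770, 0.879, 0.451 and 0.807 CPM in the 4 exponential A0 cultures, from 11 to 22 counts each, and 5.89, 2.13 and 1.98 CPM in the 3 A1 cultures, from 25 to 72 counts. All A1 cultures lay above all A0 cultures, with culture 1 well above the other two. This gave a log2 fold change of 2.18 (SE 0.38), a 4.55-fold higher level in A1, with an adjusted p of 0.00059 in edgeR's test. Without A1 culture 1 it was 1.49, or 2.80-fold, with an adjusted p of 0.0078.

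That culture also carried traces of genes otherwise seen in CHO-S. A set of 41 genes had at most 3 counts in every A0 culture and at least 5 CPM in exponential CHO-S. Their summed level in exponential A1 culture 1 was 1.99% of the CHO-S mean, from 252 counts, and 20 of the 41 genes exceeded 3 counts there. In exponential A1 cultures 2 and 3 the sum was 0.198% and 0.177% of the CHO-S mean, and in the stationary A1 cultures between 0.233% and 0.385%. On the same scale Isg15 stood at 5.39% of the CHO-S mean in A1 culture 1, at 1.95% and 1.81% in cultures 2 and 3, and between 3.64% and 3.67% in stationary A1. On this percentage scale Isg15 exceeded the sum of these genes in every A1 culture. In CPM the sum was the larger in exponential A1 culture 1, at 20.6 against 5.89. Genes of the interferon pathway were not left out of the 41. The part that the traces had in the level of Isg15 was not tested.

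**Figure D2:**
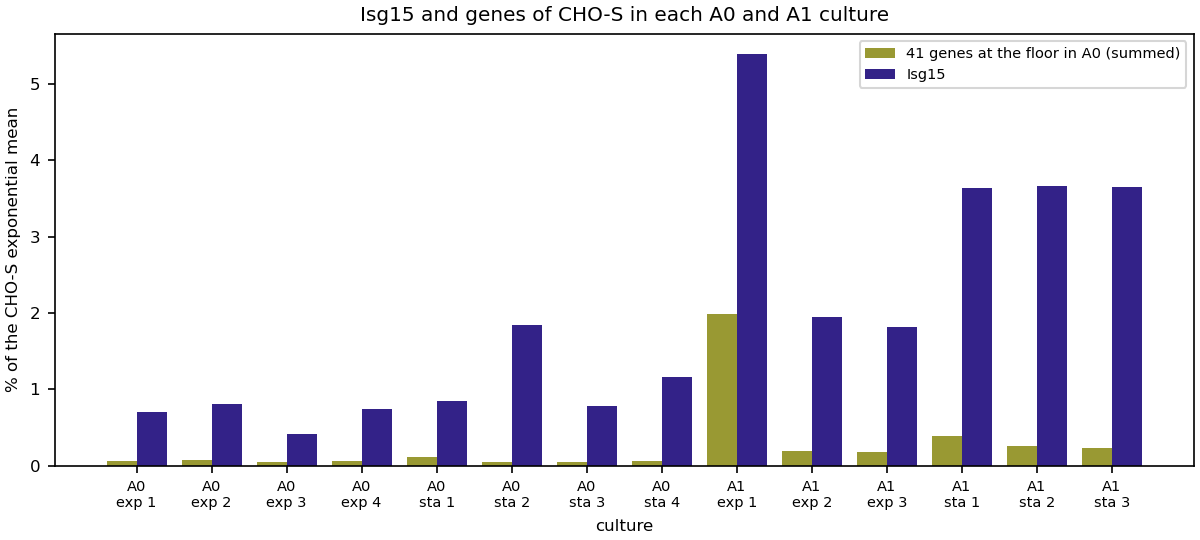
Summed level of 41 genes at or under 3 counts in every A0 culture (olive bars) and level of Isg15 (dark blue bars) in each A0 and A1 culture, both as a percentage of the mean of exponential CHO-S. The bar of the 41 genes reaches 1.99% in exponential A1 culture 1 and stays at or under 0.385% in all other A1 cultures. Its low values in A0 follow from how the genes were chosen.

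In stationary phase Isg15 reached 0.931, 2.02, 0.857 and 1.27 CPM in A0 and 3.98, 4.01 and 3.99 CPM in A1. The A1 cultures were close to one another and all above A0. On the log2 scale the difference was 1.63 (SE 0.28), or 3.10-fold, with an adjusted p of 0.0004 by edgeR. Within the A lines the order of the group means ran from exponential A0 over stationary A0 and exponential A1 to stationary A1. Each neighbouring pair in that order overlapped between cultures.

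Usp18 (RefSeq gene 100753049), the protease acting on ISG15 conjugates, differed between A1 and A0 at both phases. In exponential phase the A0 cultures held 3.35, 2.72, 2.95 and 3.82 CPM and the A1 cultures 6.63, 4.95 and 5.49 CPM. In stationary phase they held 2.98, 3.19, 2.65 and 2.47 CPM and 8.82, 9.51 and 9.49 CPM. At each phase the groups were fully separated, and the gap was wider in stationary cultures. The log2 fold change of A1 over A0 was 0.83 (SE 0.19, adjusted p 0.0043) in exponential phase. In stationary phase it was 1.71 (SE 0.16), a 3.27-fold difference, with an adjusted p of 3.1e-06 (edgeR for both).

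Irf7 (RefSeq gene 100755889) encodes the factor that amplifies interferon gene transcription and is itself a target. Its levels were low in the A lines, with 1.08, 1.04, 1.02 and 1.49 CPM in exponential A0 and 2.78, 2.05 and 2.59 CPM in exponential A1. These groups did not overlap, although each culture had only 24 to 35 counts. They differed by 1.10 on the log2 scale (SE 0.25, adjusted p 0.0043, edgeR), which is a 2.14-fold higher level in A1. In stationary phase A0 held 2.05, 2.44, 1.87 and 1.95 CPM, inside the A1 range of 1.33, 2.36 and 3.27 CPM. There the log2 fold change was 0.09 (SE 0.29) and did not pass the test.

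Irf1 (RefSeq gene 100756092), an activator of interferon targets, was higher in A1 than in A0 at both phases. Exponential A0 cultures held 21.6, 16.5, 14.6 and 16.5 CPM and A1 cultures 26.5, 33.2 and 22.4 CPM. Stationary A0 cultures held 18.6, 17.3, 19.5 and 18.4 CPM and A1 cultures 36.0, 29.8 and 29.1 CPM. Every A1 culture thus exceeded every A0 culture of its phase. Its difference on the log2 scale was 0.65 (SE 0.15, adjusted p 0.0047) and 0.76 (SE 0.10, adjusted p 7.3e-05) in edgeR's test. Without exponential A1 culture 2 the first was 0.49 and did not pass, with an adjusted p of 0.058.

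Irf9 (RefSeq gene 100760392), the DNA-binding partner of the STAT proteins in ISGF3, separated the lines in stationary phase. Stationary A0 held 22.4, 18.9, 21.4 and 18.96 CPM against 37.3, 35.6 and 35.1 CPM in A1. This is a log2 fold change of 0.81 (SE 0.10, adjusted p 2.3e-05, edgeR). In exponential phase A0 held 15.9, 15.6, 17.2 and 21.7 CPM and A1 24.1, 23.4 and 21.1 CPM, so that A0 culture 4 lay within the A1 range. The log2 fold change of 0.38 (SE 0.13) passed with an adjusted p of 0.04. It did not pass under 8 of 16 alternative settings, among them the fits without A0 culture 1 (0.33), 2 (0.33) or 3 (0.36) and without A1 culture 1 (0.33), 2 (0.36) or 3 (0.43).

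Stat2 (RefSeq gene 100764772), the STAT protein specific to ISGF3, did not pass between A1 and A0. In exponential phase its level was 25.0 and 27.8 CPM in A0 cultures 1 and 2 but 43.1 and 44.3 CPM in cultures 3 and 4, and 40.0, 43.8 and 40.0 CPM in A1. The A0 cultures thus fell into 2 pairs, which are also those whose second libraries carried different marks. The split was present in both libraries of each culture, at 21.5 to 28.0 CPM before scaling in cultures 1 and 2 and 37.9 to 46.8 CPM in cultures 3 and 4. The log2 fold change over all 4 cultures was 0.24 (SE 0.17, adjusted p 0.35). Against A0 cultures 1 and 2 alone it was 0.64 (adjusted p 0.00023), and against cultures 3 and 4 alone -0.089 (adjusted p 0.48, edgeR throughout). In stationary phase A0 held 50.4, 50.1, 57.5 and 53.0 CPM and A1 55.3, 47.6 and 55.7 CPM, with a log2 fold change of -0.01 (SE 0.09).

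The sensor Ifih1 (RefSeq gene 100767593) showed the same split. Exponential A0 cultures 1 and 2 held 12.5 and 13.5 CPM and cultures 3 and 4 held 23.3 and 23.6 CPM. The A1 cultures, with 16.04, 20.6 and 19.3 CPM, lay between the pairs. The log2 fold change of A1 over A0 was 0.03 (SE 0.20) over all cultures, 0.51 (adjusted p 0.0071) against cultures 1 and 2 and -0.34 (adjusted p 0.065) against cultures 3 and 4 by edgeR. In stationary A0 the level was 17.03, 19.1, 25.0 and 26.3 CPM and in A1 20.3, 21.1 and 20.6 CPM. The stationary log2 fold change was -0.09 (SE 0.14), and against A0 cultures 3 and 4 alone it was -0.31 (adjusted p 0.017).

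Irf3 (RefSeq gene 100765676), the constitutive factor that responds first to RNA sensing, had levels of 15.7, 16.7, 16.2 and 18.6 CPM in exponential A0 and 17.8, 17.1 and 24.7 CPM in A1. In stationary phase it had 14.7, 12.9, 16.1 and 15.96 CPM in A0 and 15.2, 20.2 and 17.7 CPM in A1. The groups overlapped at both phases. The log2 fold changes were 0.24 (SE 0.14, adjusted p 0.22) and 0.25 (SE 0.13, adjusted p 0.16), neither past the threshold in edgeR's test. The later value passed with A0 cultures 1 and 2 alone, at 0.36 (adjusted p 0.032).

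**Figure D3:**
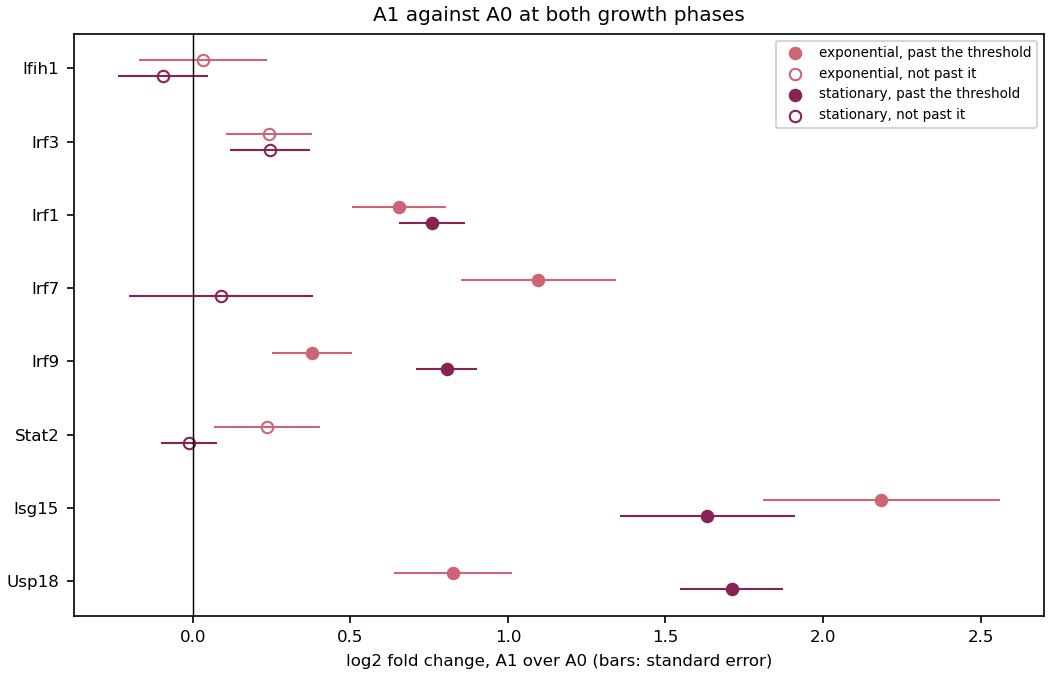
Log2 fold change of A1 over A0 for the 8 members with counts, in exponential (rose) and stationary phase (purple), with bars of 1 standard error. Filled points passed the threshold and open points did not. Isg15, Usp18, Irf1 and Irf9 are filled at both phases, and Irf7 only in exponential phase, where its value was 1.10 against 0.09 in stationary phase.

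CHO-S lies outside the lineage of A0 and A1, and the comparison with it places the difference between those lines on a wider scale. In exponential phase 8 of 9 members passed between A0 and CHO-S, 7 of them lower in A0 and Ifih1 higher. Of 19966 genes 49.5% passed, 27.6% as higher and 21.9% as lower. Between A1 and CHO-S 7 of 9 members passed, 6 lower and Ifih1 higher, where 57.2% of 18488 genes passed, 30% as higher and 27.1% as lower. In stationary phase 7 of 8 members passed for A0, 6 of them lower, against 40% of all genes, 20.7% as higher and 19.3% as lower. For stationary A1 7 of 8 passed, again 6 lower, against 34.8%, with 18.2% higher and 16.6% lower. The groups did not overlap for 7 members in exponential A0 (53.8% of all genes), exponential A1 (61.9%) and stationary A0 (45.1%) and for 6 in stationary A1 (48.8%). The median log2 fold change of the members was -1.91 for exponential A0, -1.10 for exponential A1, -2.05 for stationary A0 and -1.29 for stationary A1, and that of all genes lay between 0.05 and 0.14. Without stationary CHO-S culture 1, the library with 1038026 counts, 57.4% of all genes passed between stationary A1 and CHO-S, while the number of members stayed at 7. It was 23% without stationary A1 culture 2 and 22.8% without stationary CHO-S culture 2. The comparisons of A0 and A1 with CHO-S share their CHO-S cultures.

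Isg15 held 96.1, 113 and 118 CPM in exponential CHO-S and 131, 238 and 239 CPM in stationary CHO-S. No A0 or A1 culture exceeded 5.89 CPM. In exponential phase the level was 148-fold lower in A0 than in CHO-S, at a log2 fold change of -7.21 (SE 0.16, adjusted p 1.6e-13), and 32.9-fold lower in A1, at -5.04 (SE 0.16, adjusted p 9.5e-18). Without exponential A1 culture 1 the latter was 53.7-fold. In stationary phase Isg15 was 162-fold lower in A0 (adjusted p 2.1e-07) and 51.7-fold lower in A1 (adjusted p 5.8e-06, edgeR for all 4 comparisons).

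Usp18 held 12.5, 11.9 and 12.2 CPM in exponential CHO-S and rose to 38.2, 34.1 and 42.8 CPM in stationary CHO-S. The latter values are the highest of the gene in any group. The log2 fold change to CHO-S was -1.91 (SE 0.15) for A0 and -1.10 (SE 0.13) for A1 in exponential phase, with adjusted p of 8.1e-08 and 1.1e-07. In stationary phase it was -3.78 (SE 0.17) and -2.06 (SE 0.15), with adjusted p of 2.3e-07 and 4.2e-05 by edgeR. Its 6 group means rose from stationary A0 over exponential A0, exponential A1, stationary A1 and exponential CHO-S to stationary CHO-S, and only the A0 pair overlapped between cultures.

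Irf7 held 16.7, 21.6 and 18.8 CPM in exponential and 11.4, 28.8 and 28.0 CPM in stationary CHO-S. The lowest of these, from 11 counts, came from the shallow library, and it still lay above every A0 and A1 culture. Irf7 was 16.2-fold lower in exponential A0 (adjusted p 1.2e-10) and 7.63-fold lower in exponential A1 (adjusted p 5.5e-14) than in CHO-S. In stationary phase it was 12.2-fold and 11.8-fold lower, with adjusted p of 3.6e-06 and 0.00012 (edgeR).

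Irf9 held 68.6, 67.0 and 65.5 CPM in exponential CHO-S and 69.1, 133 and 150 CPM in stationary CHO-S. It was 3.78-fold lower in exponential A0 and 2.94-fold lower in exponential A1, and in stationary phase 5.96-fold and 3.38-fold lower. Each of these passed edgeR's test, the weakest with an adjusted p of 0.0013. The groups did not overlap in any of them.

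Irf1 held 46.1, 44.7 and 47.5 CPM in exponential CHO-S, above all A0 and A1 cultures. It differed by -1.40 on the log2 scale (SE 0.12) in A0 and -0.76 (SE 0.09) in A1. In stationary CHO-S it held 31.0, 60.1 and 59.1 CPM, the first in the shallow library and inside the A1 range. The stationary log2 fold change was -1.53 (SE 0.19, adjusted p 0.00016) in A0 and -0.75 (SE 0.23, adjusted p 0.034) in A1. The A1 value did not pass under 6 of 12 settings, which included leaving out stationary A1 culture 1 (-0.82), 2 (-0.69) or 3 (-0.68) and stationary CHO-S culture 2 (-0.62) or 3 (-0.66). Without CHO-S culture 1 it was -0.96 and passed.

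Stat2 differed less, with 50.6, 54.1 and 55.3 CPM in exponential and 81.5, 94.6 and 97.4 CPM in stationary CHO-S. The A0 value in exponential phase was -0.59 on the log2 scale (SE 0.17, adjusted p 0.0091), and it ranged from -1.01 with A0 cultures 1 and 2 alone to -0.29 with cultures 3 and 4 alone. The A1 value was -0.37 (SE 0.06), and with all 6 groups in 1 fit it did not pass (adjusted p 0.075, edgeR). In stationary phase both were -0.82, and A0, A1 and exponential CHO-S overlapped in level while stationary CHO-S lay above all other groups. Irf3 held 17.6, 18.7 and 18.7 CPM in exponential and 12.4, 22.8 and 18.3 CPM in stationary CHO-S. It passed in none of these 4 comparisons (log2 fold changes from -0.38 to 0.12), and each neighbouring pair of its 6 group means overlapped. Without stationary CHO-S culture 1 the stationary A0 value for Irf3 was -0.46 and passed with an adjusted p of 0.017 (edgeR).

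Ifih1 went in the opposite direction. It had 0, 0 and 2 counts in the exponential and 0, 1 and 0 counts in the stationary CHO-S cultures, against 143 to 568 counts in every A0 and A1 culture. All A0 and A1 cultures were therefore far above CHO-S. The ratio of summed counts, scaled by library size, was 354 for exponential A0 over CHO-S (95% interval 97.7 to 2922) and 364 for exponential A1 (100.5 to 3015). In stationary phase it was 488 (87.3 to 19274) and 456 (81.6 to 18051). These intervals cover counting error only, and they rest on 1 CHO-S culture per phase, exponential culture 3 and stationary culture 2, without which CHO-S had no count. All 4 differences passed edgeR's test, the largest adjusted p being 2.7e-06.

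Rsad2 (RefSeq gene 100753921) was scarcely detected. CHO-S had 0, 1 and 5 counts in exponential and 0, 2 and 0 counts in stationary phase, and all 14 A0 and A1 cultures had 0. A count of 0 allows a level of up to 0.115 to 0.427 CPM, depending on the culture. Exponential A0 against CHO-S passed edgeR's test (adjusted p 0.026) and A1 against CHO-S did not (adjusted p 0.053), both on 6 counts in all, so no fold change is given.

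A further question was how the members change from exponential to stationary phase within a line. Of 8 members tested in A0, 2 passed, both higher in stationary phase, against 37.7% of 20267 genes, 17.7% higher and 20.1% lower. In A1 3 of 8 passed, all higher, against 33.4% of 18548 genes, 15.6% higher and 17.8% lower. In CHO-S 3 of 9 passed, all higher, against 13.3% of 17367 genes, 6.81% higher and 6.48% lower. The members' median log2 fold changes were 0.23, 0.25 and 0.46, and those of all genes 0.0013, 0.032 and 0.023. The summed level of the 8 leukocyte markers rose with phase in every line, from 3.10 to 4.39 CPM to 18.7 to 70.1 CPM in A0, from 3.6 to 4.27 CPM to 9.91 to 13.1 CPM in A1 and from 4.18 to 4.78 CPM to 29.8 to 39.2 CPM in CHO-S, with Ptprc, Cd3e, Ms4a1 and Adgre1 at or near 0. Of the same list Cd68 made up most of the rise, and Csf1r went from a mean of 0.638 to 3.51 CPM in A0, from 0.819 to 1.13 CPM in A1 and from 0.686 to 0.310 CPM in CHO-S. The list's part in the phase changes was not tested. Groups did not overlap for 2, 3 and 4 members, and for 35.8%, 43.1% and 36.4% of all genes.

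The factor Stat2 passed in all 3 lines, with log2 fold changes of 0.58 (SE 0.16, adjusted p 0.0083) in A0, 0.37 (SE 0.08, adjusted p 0.00034) in A1 and 0.79 (SE 0.13, adjusted p 0.011) in CHO-S by edgeR. With all 6 groups in 1 fit the A1 value was 0.36 and did not pass (adjusted p 0.17). In each line all stationary cultures exceeded all exponential ones. The A0 value was 0.92 with cultures 1 and 2 alone and 0.34 with cultures 3 and 4 alone. Irf9 passed in A1, at 0.67 (SE 0.09, adjusted p 4.3e-07), and stood at 0.20 (SE 0.13) in A0. Irf7 passed in A0, at 0.83 (SE 0.24, adjusted p 0.011), but not with A0 cultures 3 and 4 alone (0.61, adjusted p 0.19), and it stood at -0.15 (SE 0.28) in A1. Irf1 and Irf3 passed in no line, with values between -0.18 and 0.22.

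Usp18 was the target with the clearest dependence on the line. Its stationary over exponential log2 fold change was -0.20 (SE 0.19, adjusted p 0.46) in A0, 0.73 (SE 0.15, adjusted p 0.00035) in A1 and 1.65 (SE 0.13, adjusted p 0.0023) in CHO-S. The difference between these changes was itself tested as an interaction of line and phase, and Usp18 was the member that passed in all 3 pairs of lines. The interaction was 0.89 (SE 0.25, adjusted p 0.026) for A1 against A0, -1.87 (SE 0.22, adjusted p 1.8e-05) for A0 against CHO-S and -0.92 (SE 0.19, adjusted p 0.0089) for A1 against CHO-S by edgeR. Of all genes 8.94% passed the first, 5.04% as higher and 3.9% as lower, 10.3% the second, 3.78% and 6.57%, and 7.6% the third, 3.83% and 3.77%. No other member passed in these fits. With the replicate number as a block, Irf7 (-0.997, adjusted p 0.0364) and Irf9 (0.43, adjusted p 0.0445) passed for A1 against A0. With all 6 groups in 1 fit Irf9 passed for A0 against CHO-S (-0.67, adjusted p 0.037), and for A1 against CHO-S Stat2 passed by DESeq2 (-0.49, adjusted p 0.0081) and with edgeR's filterByExpr (-0.46, adjusted p 0.042). Without stationary CHO-S culture 1 Irf9 also passed for A0 against CHO-S (-0.83), and Stat2 (-0.50), Irf7 (-0.78), Irf9 (-0.42) and Isg15 (-0.86) for A1 against CHO-S. The first was not past the threshold under 6 of 23 settings, at 0.67 to 0.87 with adjusted p of 0.054 to 0.077, including those without exponential A1 culture 2 (0.83) or 3 (0.86) and without stationary A1 culture 2 (0.87) or 3 (0.87).

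For Isg15 the phase change was 0.79 (SE 0.33, adjusted p 0.076) in A0, 0.28 (SE 0.28, adjusted p 0.48) in A1 and 0.91 (SE 0.23, adjusted p 0.043) in CHO-S. The A1 value was 0.98 (adjusted p 0.0028) without exponential culture 1, the culture with the CHO-S traces. In A0 cultures of equal number deviated together in the 2 phases, which does not establish that they were paired. With the number as a block 4 members passed, Isg15 at 0.78 (adjusted p 0.031) and Ifih1 at 0.28 (adjusted p 0.034) in addition to Stat2 and Irf7 (edgeR). Ifih1 without the block was 0.25 (SE 0.20) in A0, and it was 0.17 (SE 0.11) in A1. The A0 value of Isg15 also passed without stationary A0 culture 3 (0.94), that of Irf9 without exponential A0 culture 4 (0.33), and the A1 value of Irf1 without exponential A1 culture 2 (0.37).

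The phase comparison in CHO-S depended on single cultures. Without the shallow stationary culture 1, 6 members passed, Irf1 (0.38), Irf7 (0.59) and Irf9 (1.07) being added to Stat2 (0.85), Isg15 (1.13) and Usp18 (1.63), and the share of all genes that passed was 47.7%. With it Irf9 was 0.84 (SE 0.25, adjusted p 0.07) and Irf7 0.46 (SE 0.21). Leaving out any other CHO-S culture left at most 1 member. Without exponential culture 2 none of 16938 genes passed edgeR's test, 3471 of them having an unadjusted p under 0.05, and Usp18 stood at 1.65 with an adjusted p of 0.051. The values of Stat2 and Isg15 were then 0.80 and 0.94. They were 0.75 and 0.82 without exponential culture 1, 0.82 and 0.97 without exponential culture 3, 0.77 and 0.79 without stationary culture 2, and 0.74 and 0.78 without stationary culture 3.

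**Figure D4:**
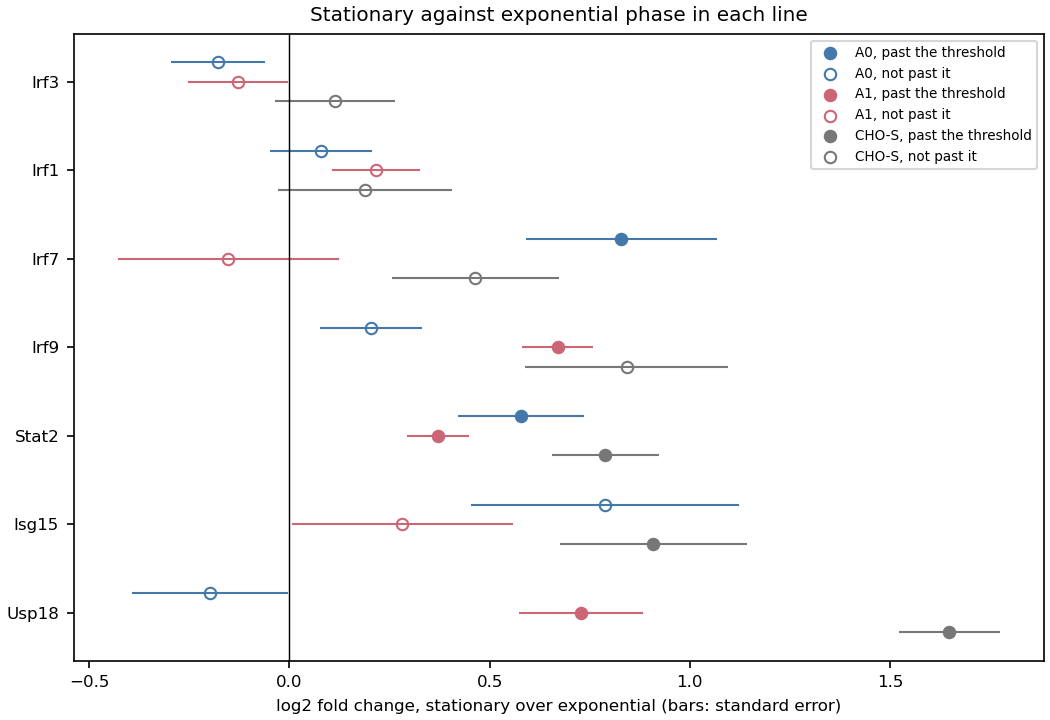
Log2 fold change of stationary over exponential phase in A0 (blue), A1 (rose) and CHO-S (grey) for 7 members, with bars of 1 standard error. Filled points passed the threshold and open points did not. Stat2 is filled in all 3 lines, and Usp18 runs from -0.20 in A0 over 0.73 in A1 to 1.65 in CHO-S.

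The other genes of the pathway were taken from lists grouped by role, of which 102 of 121 genes were in the table. Between A1 and A0 35 of 92 tested genes passed in exponential phase, 28 of them higher in A1, and 38 of 91 in stationary phase, 26 of them higher. These are 38.0% and 41.8% of the lists against 25.9% and 33.7% of all genes. Interferon targets other than the members passed in 9 of 19 cases in exponential phase, 8 of them higher, and antigen presentation genes in 6 of 11, all higher. Antiviral effectors passed in 5 of 14, all higher. Receptors and their kinases passed in 3 of 7, with 1 higher and 2 lower. In stationary phase other targets passed in 10 of 19 cases, 8 of them higher, effectors in 5 of 15, 4 of them higher, and negative regulators in 7 of 15, 5 of them higher. Antigen presentation genes then passed in 3 of 11, all higher, and sensors in 4 of 13, with 1 higher and 3 lower. For effectors, antigen presentation and sensors these shares (33.3%, 27.3% and 30.8%) were at or below the 33.7% of all genes. Without exponential A1 culture 2 or 3 the exponential lists held 21 or 23 genes that passed, and 17.2% or 16% of all genes did. The median log2 fold change over all lists was 0.17 in exponential and 0.08 in stationary phase.

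Trim21, a cytosolic antibody receptor and ubiquitin ligase, had the largest rise of the named genes from A0 to A1. It averaged 0.272 CPM ± 0.0860 (SD, n = 4) in exponential A0 and 4.07 CPM ± 0.707 (n = 3) in A1, and 0.103 and 5.18 CPM in stationary cultures. Ifi44, an interferon target, was higher in A1 by a log2 fold change of 1.47 in exponential and 0.99 in stationary phase. Ube2l6, the conjugating enzyme for ISG15, was higher by 0.86 and 1.65. Parp12 was higher in exponential phase (0.88) and Rtp4 in stationary phase (3.68), both also targets. All of these had adjusted p of at most 0.011 by edgeR.

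Some genes of the lists were lower in A1. Aim2, a sensor of cytosolic DNA, averaged 32.9 CPM in exponential A0 and 13.6 CPM in A1, and 78.9 and 21.5 CPM in stationary cultures. Its log2 fold change was -1.27 and -1.89, with adjusted p of 6.1e-05 and 1.8e-07 (edgeR). In exponential phase the phosphatase Ptpn11 (-0.53), the repressor Irf2 (-0.44) and the receptor subunit Ifnar1 (-0.38) were also lower. In stationary phase the adaptor Ticam1 (-0.98), the antiviral GTPase Mx1 (-0.86) and Xaf1 (-0.69) were lower.

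Against CHO-S more genes of the lists were lower than higher in both A lines. In exponential phase 55 of 93 tested genes passed as lower and 15 as higher in A0, and 47 of 91 as lower and 19 as higher in A1. In stationary phase 45 of 92 were lower and 7 higher in A0, and 36 of 89 lower and 4 higher in A1. The shares that passed were 75.3%, 72.5%, 56.5% and 44.9%, against 49.5%, 57.2%, 40% and 34.8% of all genes. In exponential A0 16 of 19 other interferon targets passed, none of them higher, and 11 of 15 antiviral effectors were lower. Receptors and their kinases ran the other way in exponential phase, with 4 higher and 1 lower of 7 in both A0 (median log2 fold change 0.33) and A1 (0.18), and the sensors in A1 had 4 higher and 5 lower of 13 (median 0.017). Without stationary CHO-S culture 1, 68 genes of the lists passed for stationary A0 and 70 for A1.

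Among the named genes, Ifi44l averaged 0.0512 CPM in exponential A0 and 28.8 CPM in CHO-S, and Ifit2, which binds viral RNA, 0.0510 and 15.2 CPM. In exponential A1 the chemokine Cxcl10 averaged 0.763 CPM against 45.5 CPM in CHO-S, and Herc6, an ISG15 ligase of rodents, 0.108 against 5.65 CPM. All of these passed as lower. Eif2ak2, the RNA-dependent kinase PKR, listed as LOC100757909, resembled Ifih1, with 0 counts in all 6 CHO-S cultures. Taking 3 counts over the group as its upper limit there, the gene was at least 218-fold higher in exponential A0 and at least 82.4-fold higher in stationary A1. Aim2 was higher in both A lines in exponential phase, at 32.9 and 13.6 CPM against 2.33 CPM in CHO-S. Tap2, a peptide transporter of antigen presentation, was higher in stationary A1 (103 against 51.4 CPM).

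The ligands were near the limit of detection. Of the 4 in the table, Ifnb1 had at most 1 count in any culture, Ifne none, Ifnk at most 4 and Ifng at most 21. None passed in any comparison.

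**Figure D5:**
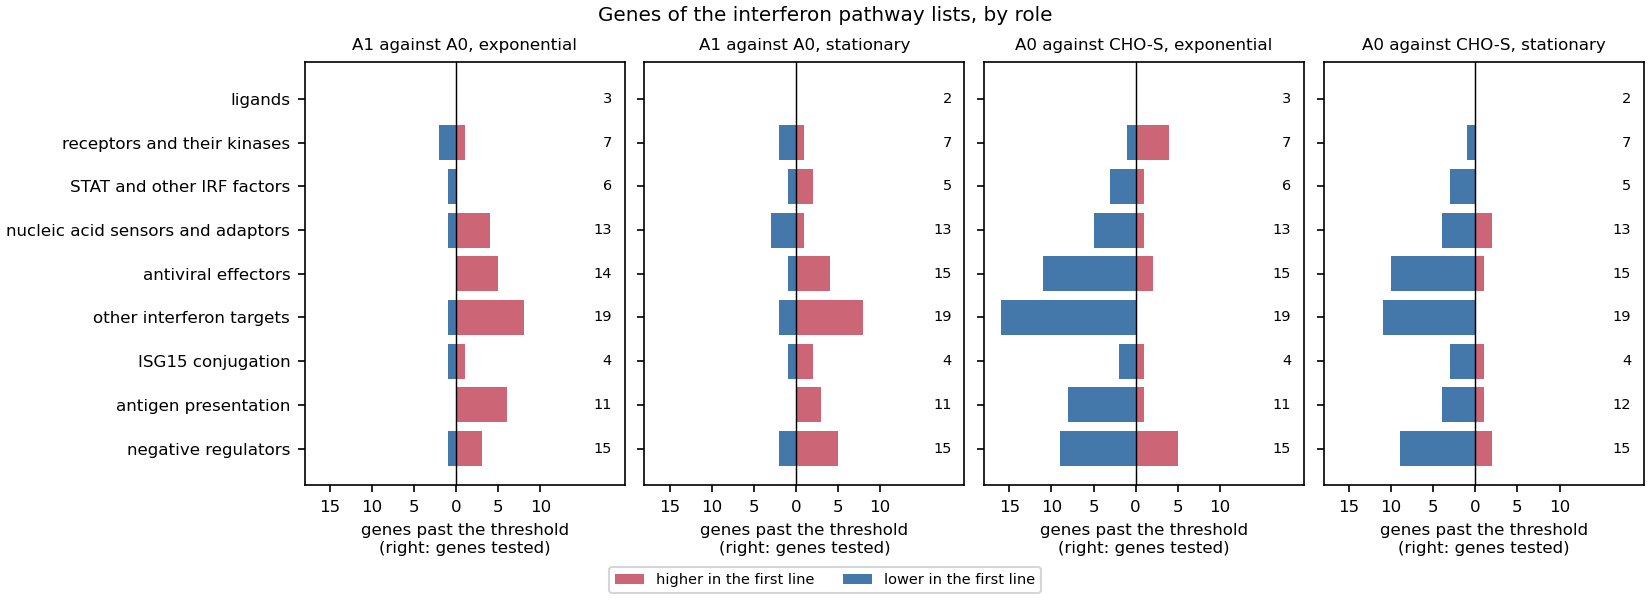
Number of genes in each role list that passed the threshold as higher (rose, to the right) or lower (blue, to the left) in the first line of each comparison, with the number tested at the right edge. Among other interferon targets, 8 of 19 were higher in A1 than in A0 in exponential phase and 16 of 19 lower in A0 than in CHO-S.

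From exponential to stationary phase the lists moved in both directions in the A lines, with 23 higher and 16 lower of 92 tested in A0 and 15 higher and 14 lower of 90 in A1. In CHO-S 12 were higher and 1 lower of 88. These are 42.4%, 32.2% and 14.8% of the lists, near the 37.7%, 33.4% and 13.3% of all genes. With 1 CHO-S culture left out 62 passed without stationary culture 1, and from 0 to 7 without any of the other 5. Mx1 rose from 23.7 to 67.9 CPM in A0, and Xaf1 from 3.18 to 8.24 CPM. Ifi30, a lysosomal thiol reductase, fell from 110 to 25.2 CPM in A0 and from 89.7 to 39.1 CPM in A1, while Cd68 of the leukocyte list rose from 2.94 to 41.2 CPM in A0 and from 2.96 to 9.90 CPM in A1. Trim25 and Uba7, the ligase and activating enzyme used in ISG15 conjugation, rose in A1 by 1.02 each on the log2 scale. In CHO-S Aim2 rose by 3.15 and the exonuclease Isg20 by 1.51, and the immunoproteasome subunit Psmb10 fell by 1.17. The part of the Cd68 rise in these changes was not tested.

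Over the 20 cultures, members with the same order of lines also varied together, which is a description of 6 groups that share their lines and not of independent samples. Pearson's correlation of log2 levels was 0.98 between Isg15 and Irf7, 0.96 between Isg15 and Irf9, 0.94 between Irf9 and Usp18 and -0.96 between Isg15 and Ifih1. For Irf3 it was at most 0.37 with any other member. Among 10588 genes with a mean of at least 5 CPM, those most like Isg15 were Trim54 (0.988) and Ifi44l (0.987). For Irf7 they were Sema4c (0.986) and Hmgxb3 (0.983), and for Irf9 Tgm2 (0.984) and Adamts4 (0.973). Irf1 was most like S100a6 (0.946) and Adamts4 (0.945), Usp18 like Rnf24 (0.968) and Gpcpd1 (0.966), Stat2 like Dock4 and Cdk19 (0.918 each), and Irf3 like Idh2 (0.843) and Dnajb1 (0.838). Ifih1 was most like LOC100756621 (0.996) and Zfpm2 (0.996).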

How the data were processed

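PolyA-selected, stranded RNA libraries had been sequenced from 20 cultures. The authors aligned the reads with STAR 2.5.4b and counted them per gene with HTSeq 0.7.2 (versions per the submitters' processing notes) on the C_griseus_v1.0 genome, and deposited raw counts. The strand setting of the counting is not given in the sources used here. Whether reads of overlapping antisense genes were kept apart is therefore not known. The summary lines of the counter, such as 16.1% of reads outside features and 13.9% aligned more than once, were left out of library sizes and tests.

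Libraries of one exponential A0 culture were summed. Tests were made in edgeR 4.0.16 under R 4.3.3, on genes whose counts varied between the compared cultures and were at least 1 in 2 or more of them. TMM scaling and the two-sided quasi-likelihood test were used, p-values were adjusted over all tested genes by the Benjamini-Hochberg method, and the threshold was 0.05. Each fit held only the groups compared, and interactions held 4 groups. The study's own tool, DESeq2 1.42.0, was an alternative. The scripts were tested on simulated data. Groups came from the sample labels, and p-values measure the spread between cultures. Phase and interaction tests without a block treat all cultures as separate, which the labels do not state. Whether equal culture numbers pair the phases was checked by the correlation of their deviations from the group means over 10588 genes. All 4 correlations exceeded 0.1 in A0 only (0.19 to 0.44), so blocked values are given there. For other comparisons the block is given as an alternative setting only.

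CPM are counts per 1000000 counts of a library after TMM scaling over all cultures. Gene lengths were not used, so where CPM of different genes stand side by side they compare counts and not numbers of transcripts. Gene names and identifiers were matched to RefSeq genes of the CriGri-PICRH-1.0 assembly, and 3 list genes were matched by identifier or synonym. Since that is not the build of the counts, no coordinates are given. The members, lists and tests were chosen with earlier results of these data known. Beside the 9 members, up to 4 genes of the lists per direction between A1 and A0, and up to 2 elsewhere, were named by size of change among those that passed, averaged at least 1 CPM and did not overlap between groups. The ligands and some cell type markers were named in addition. Some genes of the lists and markers are not reported here. Likeness between genes used log2(CPM + 1). Intervals and limits cover counting error only.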

Additional observations from a re-analysis of the deposited data

Results flagged for a closer look

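In exponential A0, culture 4 stood apart for Irf7 at 1.49 CPM, where the other 3 cultures lay between 1.02 and 1.08 CPM. Its gap to the nearest culture was 0.886 of the group's range, above Dixon's 95% critical value for 4 samples. It was the single case among 16 groups of 4 cultures tested over the members, and chance alone flags about 5% of groups. The 4 cultures had between 25 and 35 counts of Irf7.

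The change of Usp18 from exponential to stationary phase differed between lines by the test of the interaction (edgeR, adjusted by the Benjamini-Hochberg method). On the log2 scale the change was 0.886 greater in A1 than in A0, with an adjusted p of 0.026. Between A0 and CHO-S the interaction was -1.87 (adjusted p 1.8e-05), and between A1 and CHO-S -0.921 (adjusted p 0.0089). In CPM Usp18 moved from a mean of 3.21 to 2.82 in A0 over 4 cultures per phase, from 5.69 to 9.27 in A1 and from 12.2 to 38.4 in CHO-S over 3 cultures per phase. All 3 stationary cultures exceeded all 3 exponential cultures in A1 and in CHO-S, and the A0 groups overlapped.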

How the results depend on the processing

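Over all comparisons, each member's log2 fold change was recomputed under DESeq2, other scaling factors, other gene filters, all 6 groups in 1 fit, the replicate block, the first A0 libraries only, A0 cultures 1 and 2 or 3 and 4 alone, and each culture left out. Of these values 1351 stayed on the same side of the threshold with the same sign, 38 no longer passed, 35 passed anew and 51 changed sign. Ifih1 was left out for changes within CHO-S and for interactions with CHO-S, and Rsad2 throughout, since both had at most 5 counts there. Sign changes were confined to values that had not passed. The causes of the changes were not tested. Leaving out a culture lowers the number of cultures and also removes that culture's own values. Depth limits Irf7 and Isg15 in A0, at 10 to 35 counts per culture, and every member in stationary CHO-S culture 1. That culture also lay below cultures 2 and 3 for Irf9 (69.1 against 133 and 150 CPM) and Isg15 (131 against 238 and 239 CPM). The same held for Irf1 (31.0 against 60.1 and 59.1 CPM) and Irf7 (11.4 against 28.8 and 28.0 CPM). Stat2 (81.5 against 94.6 and 97.4 CPM) and Irf3 (12.4 against 22.8 and 18.3 CPM) were also lower there. For Usp18 culture 1 lay between cultures 2 and 3 (38.2 against 34.1 and 42.8 CPM). The part of depth in these values was not tested.

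With the replicate number as a block, 4 members passed between the phases in A0, 1 in CHO-S, 3 in the interaction of A1 and A0 with phase and 0 in that of A1 and CHO-S, where Usp18 stood at -0.92 with an adjusted p of 0.054 by edgeR. Ifih1 between stationary A1 and A0 was 0.014, Irf3 between the phases of CHO-S -0.0062, and Irf1 in the interaction of A1 and CHO-S 0.066. In A0 the deviations of equal numbers correlated between the phases at 0.19 to 0.44, and elsewhere such correlations lay between -0.20 and 0.19. Pairing is not claimed for any line. In the block fit Stat2 passed between exponential A1 and A0 (0.40, adjusted p 0.015, edgeR). Deviations of equal numbers correlated there at -0.059 to 0.056. A0 culture 4, at 44.3 CPM, has no A1 culture of its number and so did not enter that fold change.

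With A0 cultures 1 and 2 alone, 4 members passed between the A0 phases and 2 in the interaction of A1 and A0. Stat2 and Irf7 between stationary A1 and A0 were then 0.050 and -0.050, and Ifih1 0.18. Between the A0 phases Irf1 was -0.10 and Usp18 0.016, and in the interaction of A0 and CHO-S Stat2 was 0.15. With A0 cultures 3 and 4 alone, 1 member passed between the A0 phases and 2 in the interaction of A1 and A0. Stat2 and Ifih1 between exponential A1 and A0 were then -0.089 and -0.34. In the interaction of A1 and A0, Stat2 was 0.016, Irf1 -0.082, Irf3 -0.035 and Ifih1 0.024, and in that of A0 and CHO-S Irf1 was 0.045. With the first A0 libraries only, 0 members passed the interaction of A1 and A0, where Irf3 was -0.019. With all 6 groups in 1 fit, Stat2 between stationary A1 and A0 was 0.00078 and 2 members passed the interaction of A0 and CHO-S. In that of A1 and CHO-S, 2 passed with DESeq2 and 2 with edgeR's filterByExpr.

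When each culture was left out in turn, between 3 and 5 members passed between exponential A1 and A0, between 0 and 6 between the CHO-S phases, between 0 and 1 in the interaction of A1 and A0, between 1 and 2 in that of A0 and CHO-S, and between 1 and 5 in that of A1 and CHO-S. The highest values for the CHO-S phases and for both interactions with CHO-S came without stationary CHO-S culture 1. Between exponential A1 and A0, Ifih1 ranged from -0.11 to 0.18. Between stationary A1 and A0, Stat2 ranged from -0.059 to 0.068, Ifih1 from -0.20 to 0.0051 and Irf7 from -0.17 to 0.39. Irf3 ranged from -0.082 to 0.20 between exponential A1 and CHO-S, from -0.24 to 0.075 between stationary A1 and CHO-S, from -0.23 to 0.062 between the A1 phases and from -0.12 to 0.20 between the CHO-S phases. Irf7 ranged from -0.40 to 0.15 between the A1 phases. In the interaction of A1 and A0, Irf1 ranged from -0.022 to 0.30, Ifih1 from -0.28 to 0.019, Irf3 from -0.10 to 0.20 and Isg15 from -0.82 to 0.15. In that of A0 and CHO-S, Isg15 ranged from -0.41 to 0.021 and Irf1 from -0.25 to 0.016, and in that of A1 and CHO-S Isg15 from -0.92 to 0.058 and Irf1 from -0.18 to 0.13.

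Counts of genes moved by more than 1.5 times in some settings, those for stationary A0 and CHO-S and the A1 phases through settings other than a culture left out. Those for the interactions were highest for both pairs with CHO-S, or nearly so, without stationary CHO-S culture 1, at 17.2% and 25.4%. Of all genes, between 16% and 37.6% passed between exponential A1 and A0, between 26.5% and 51.8% between stationary A0 and CHO-S, between 35.3% and 74.2% between exponential A1 and CHO-S, between 22.8% and 57.4% between stationary A1 and CHO-S, between 11.6% and 47.2% between the A1 phases and between 0% and 47.7% between the CHO-S phases. Of the pathway lists, between 21 and 43 genes passed between exponential A1 and A0, between 28 and 70 between stationary A1 and CHO-S, between 12 and 31 between the A1 phases and between 0 and 62 between the CHO-S phases. In the interactions, between 4.56% and 22.7% of all genes passed for A1 and A0, between 5.5% and 17.6% for A0 and CHO-S and between 2.63% and 25.4% for A1 and CHO-S.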
